A study of Ixodes ricinus with 9 samples.

Results

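The genes described here encode splicing factors and proteins of the small nuclear ribonucleoproteins (snRNPs) in the midgut of the castor bean tick Ixodes ricinus. They were chosen by name alone: a gene was taken if the Swiss-Prot protein matched to it in the table's annotation was named as a splicing factor, an snRNP protein or a pre-mRNA-splicing or pre-mRNA-processing factor, and not as a kinase. The rule took 64 of the 28510 genes, and the word kinase removed 0. All 64 are annotated as protein coding. The rule reads names and no measured value, and could reach only the 10802 genes that have a Swiss-Prot match.

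Adult females from a laboratory colony received injections of double-stranded RNA (dsRNA) that targeted antigen p23 or metalloprotease, or GFP in the control group, and were then fed through a membrane on bovine blood. Midguts were taken on feeding day 7 from 9 ticks per group, pooled by 3, so that each of the 3 groups has 3 libraries of poly-A RNA and each library is 1 pool. The groups differ by the dsRNA and by the feeding units, because each group was fed in units of its own. Effects of dsRNA and of feeding unit therefore cannot be told apart. Injection and artificial feeding were shared by all groups, and no uninjected ticks were analysed here. The study took ticks of comparable engorgement size on that day, before the mean time to full engorgement. It reports that the share of attached ticks that engorged and detached differed between groups. It names possible handling errors, given low and inconsistent detachment in the GFP control. Neither target is paired with a gene identifier in the sources used here, so the depth of each knockdown was not checked in these libraries. By quantitative PCR, the study reports successful knockdown of antigen p23 in the midgut. It describes silencing of metalloprotease there as partial. Elsewhere it states that effective silencing was absent in the midgut and that expression there was like that of the GFP control.

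Splicing removes introns from pre-mRNA. The U1 snRNP recognises the start of the intron, the U2 snRNP and its partners SF1, U2AF and SF3 bind the branch site and the end of the intron, and the tri-snRNP of U4, U6 and U5 then joins. The Prp19 complex and a series of DEAH-box helicases drive the rearrangements that lead to both catalytic steps. Sm proteins form the ring shared by most snRNPs, the minor spliceosome handles a rare class of introns, and SR proteins, which carry an RNA recognition motif and a tail rich in serine and arginine, help choose the sites used. The roles given for each gene are those of the matched yeast, fly, worm or vertebrate protein and were not measured in ticks.

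Splicing genes were detected widely in tick midguts. Of the 64 genes, 52 had at least 1 count in all 9 libraries, against 19.5% of all genes in the table, 10 were seen in 1 to 8 libraries and 2 in none. At least 10 counts were present in every library for 46 of them. Their coding models were longer than those of all genes (median 1333.5 against 825 bases) and closer to those of the genes that could be tested (1248 bases). In the GFP control libraries the detected splicing genes had a median level of 23.8 CPM (counts scaled to the size of the library) per kilobase of coding length, against 4.10 for all detected genes and 21.6 for the genes tested in the antigen p23 comparison. The annotation gives 20 of the 64 an RNA recognition motif, among them all 9 SR proteins. All levels below that compare one gene with another are CPM per kilobase in the GFP control group with the SD over 3 libraries.

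The genes were sorted by role into 9 classes, and the classes spanned a wide range of levels. SR proteins had the highest median (9 genes, 208 CPM per kilobase), followed by the Sm core (4 genes, 141), the DEAH helicases (3 genes, 78.0) and the U2 and branch site proteins (16 genes, 57.8). The remaining regulators (3 genes) had a median of 41.4. Lower medians were found for the Prp19 complex and catalytic step factors (12 genes, 9.48), the minor spliceosome (2 genes, 8.79), the U4/U6 and U5 proteins (10 genes, 6.93) and the U1 snRNP (5 genes, 4.72). The medians of the U1, minor spliceosome, Prp19 and remaining regulator classes include models with 0 counts in the GFP control. In the U1 class these are both models matched to U1 70 kDa, and the other genes had 79.1, 12.9 and 4.72. The minor spliceosome median is the midpoint of 17.6 and 0. The places of these classes in the order therefore depend on uncovered models. The ranges within classes overlapped: U2 and branch site proteins alone ran from 0.415 to 1037.5 CPM per kilobase.

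**Figure D1:**
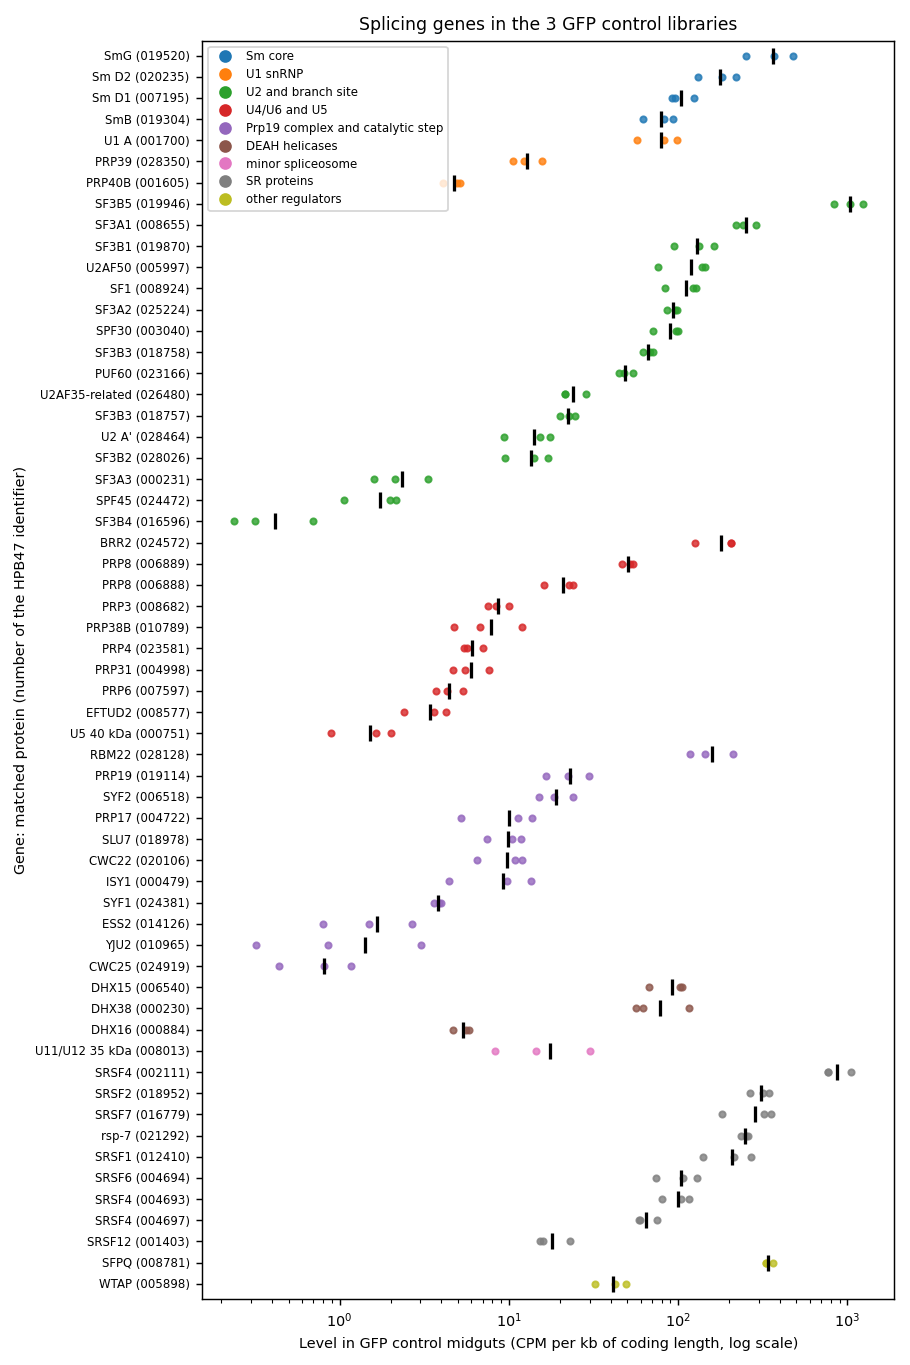
Levels of the splicing genes with counts in all 3 GFP control libraries, in CPM per kilobase of coding length on a log axis, with 1 row per gene and rows grouped and coloured by role. Points are the 3 libraries and the black tick is their mean. SR proteins sit at the high end, and most U4/U6 and U5, Prp19 complex and U1 rows lie between 1 and 30.

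The highest level per kilobase was that of SF3B5 (HPB47_019946), the smallest subunit of the SF3B complex of the U2 snRNP, at 1037.5 ± 199 (SD, n = 3). SRSF4 (HPB47_002111), an SR protein, followed at 864 ± 167, and the difference between the pair was within the spread of the libraries. SmG (HPB47_019520), of the Sm ring, stood at 366 ± 113, SFPQ (HPB47_008781), a DNA- and RNA-binding protein of paraspeckles that also takes part in splicing, at 341 ± 20.2, and SRSF2 (HPB47_018952) at 310 ± 40.6. These neighbours did not differ beyond their spread. The other SR proteins among the upper ranks were SRSF7 (HPB47_016779, 286 ± 91.3), the protein matched to worm rsp-7 (HPB47_021292, 249 ± 10.8) and SRSF1 (HPB47_012410, 208 ± 64.1).

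Within the U2 class, the branch site machinery was well represented. SF3A1 (HPB47_008655), a subunit of the SF3A complex of the U2 snRNP, had 251 ± 35 CPM per kilobase, SF3B1 (HPB47_019870), the large scaffold that clamps the branch site, 130 ± 34.0, and U2AF50 (HPB47_005997), the large U2AF subunit that binds the pyrimidine tract, 120 ± 38.2. SF1 (HPB47_008924), the first protein to bind the branch site, had 111 ± 24.2. Partner subunits of the same complexes were far lower: SF3B2 (HPB47_028026) had 13.5 ± 3.77, SF3A3 (HPB47_000231) 2.35 ± 0.905 and SF3B4 (HPB47_016596) 0.415 ± 0.243. Proteins that belong to 1 complex thus differed in mRNA level by more than the spread of the libraries. Reads came from I. ricinus and gene models from I. persulcatus, so a gene whose sequence or model differs between the species may be undercounted, and this was not tested gene by gene.

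Among the U4/U6 and U5 proteins, BRR2 (HPB47_024572), the helicase that unwinds U4 from U6, was highest at 179 ± 46.2 CPM per kilobase and held the most counts of any splicing gene. PRP8, the protein at the catalytic centre, was annotated as a pair of adjacent models at 50.8 ± 3.83 (HPB47_006889) and 20.9 ± 4.07 (HPB47_006888). PRP3 (HPB47_008682, 8.68 ± 1.28), PRP4 (HPB47_023581, 6.05 ± 0.886) and PRP31 (HPB47_004998, 5.94 ± 1.54), which hold U4 and U6 together, lay close to each other and within their spread for the last pair. EFTUD2 (HPB47_008577), the GTPase of the U5 snRNP, had 3.43 ± 0.954 and U5 40 kDa (HPB47_000751), a WD-repeat protein, 1.51 ± 0.569.

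In the class of the Prp19 complex and catalytic step, RBM22 (HPB47_028128), which contacts U6 in the active spliceosome, was highest at 158 ± 47.9, followed by the ubiquitin ligase PRP19 (HPB47_019114, 22.9 ± 6.47) and SYF2 (HPB47_006518, 19.1 ± 4.46). Of the DEAH helicases, DHX15 (HPB47_006540), which takes apart spent spliceosomes, stood at 92.0 ± 21.5, DHX38 (HPB47_000230), the homologue of yeast Prp16 that acts between the catalytic steps, at 78.0 ± 32.6, and DHX16 (HPB47_000884), the homologue of yeast Prp2 that activates the spliceosome, at 5.35 ± 0.612. U1 A (HPB47_001700), an RNA-binding protein of the U1 snRNP, had 79.1 ± 20.7, PRP39 (HPB47_028350) 12.9 ± 2.61 and PRP40B (HPB47_001605) 4.72 ± 0.573. Sm D2 (HPB47_020235, 178 ± 45), Sm D1 (HPB47_007195, 104 ± 17.4) and WTAP (HPB47_005898, 41.4 ± 8.66), a regulator of splicing and of mRNA methylation, complete the genes named by level, with U11/U12 35 kDa (HPB47_008013, 17.6 ± 11.3) of the minor spliceosome.

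Some splicing genes were hardly covered. A further model matched to PRP19 (HPB47_023056) and 1 of the 2 models matched to U1 70 kDa (HPB47_025299), the protein that binds the U1 stem loop, had 0 counts in every library, and the other U1 70 kDa model (HPB47_007875) had 1 count in metalloprotease replicate 1. The second SFPQ model (HPB47_004843) had 1 count in antigen p23 replicate 3 and 3 counts in metalloprotease replicate 3. U11/U12 48 kDa (HPB47_008253) had 8 counts in antigen p23 replicate 1 and 0 in the other 8 libraries. Such genes say nothing about the groups at this depth. A count of 0 allows up to 3 counts, which is 0.318 to 0.908 CPM before scaling, depending on the library, and this limit, like every interval below, covers counting error only.

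The libraries were unequal, and this touches every comparison below. Totals ran from 3303358 to 9430607 counts. Antigen p23 replicates 1 and 2 detected 7291 and 6294 genes, the other libraries 9136 to 10988. TMM factors, which scale each library, were highest in GFP control replicate 2 (1.26) and metalloprotease replicate 1 (1.17) and lowest in antigen p23 replicate 1 (0.794). Counts of the 64 genes made up 0.732% (antigen p23 replicate 2) to 0.930% (GFP control replicate 2) of a library, and antigen p23 replicate 1 stood at 0.796%. After scaling, the summed level of the 64 genes was 7511 to 8267 CPM in 8 libraries and 10051 CPM in antigen p23 replicate 1. By group it was 7688 ± 154 CPM in the GFP control, 8603 ± 1289 in antigen p23 and 7951 ± 291 in metalloprotease (SD, n = 3). The other antigen p23 libraries, at 7579 and 8179 CPM, lay on either side of the highest control library, at 7788 CPM. In pooled tissue, a change in the number of cells of a type and a change in RNA per cell cannot be told apart.

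Markers of the tissue and of other cell types moved with some of these libraries. Midgut markers (legumain, cathepsins B, D and L, ferritin) had 14 of 25 genes detected and 11 at 0, with a summed level of 4293 to 6502 CPM in the GFP control, 6642 to 8971 in antigen p23 and 4560 to 7730 in metalloprotease. The lowest sums were those of GFP control replicate 2 and metalloprotease replicate 1. All 5 muscle markers were detected, at 1200 to 2096, 1847 to 2222 and 717 to 2551 CPM in the same order of groups, again lowest in the same pair of libraries. Nerve markers (13 of 14 detected) summed to 114 to 167, 102 to 112 and 107 to 113 CPM, haemocyte markers (12 of 17) to 52.9 to 64.0, 47.9 to 82.9 and 38.6 to 55.0 CPM, and germ line markers (4 of 5) to 159 to 334, 185 to 342 and 101 to 270 CPM. The part of any cell type in the levels of the splicing genes was not tested.

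The comparison of antigen p23 with the GFP control asks what loss of antigen p23 does to midgut transcripts. No splicing gene changed after adjustment. Of the 64 genes, 52 passed the filter on low counts. The level in antigen p23 was above the control for 34 of them and below it for 18 by the sign of the fitted change, that is 65.4% higher where 44.0% of all 6381 genes tested were higher. Their median log2 fold change was 0.16, against -0.10 for all genes tested. With edgeR's quasi-likelihood test and Benjamini-Hochberg adjustment, 0 of 6381 genes passed a threshold of 0.05 (0% called). At an unadjusted p of 0.05 or less, 1 splicing gene was lower (1.71% of all genes were) and 1 was higher (1.55% of all genes were). DESeq2 called 6 genes after adjustment (0.0786% of those with an adjusted p), none of them a splicing gene, and had 1 splicing gene, SF1, at a p of 0.05 before adjustment, as lower (2.38% of all genes), and 0 as higher (1.23% of all genes). The splicing genes varied less between replicates than genes in general (median biological coefficient of variation 0.403 against 0.519), and 3 of 52 differed by more than 1 on the log2 scale, against 16.5% of all genes. The SE of their log2 fold changes had a median of 0.42 and ran from 0.25 to 1.17, so that with 3 pools per group a missed threshold does not show that levels were equal.

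SF1, the branch site binding protein, was the splicing gene with the smallest p. Its level was 176, 169 and 115 CPM in GFP control replicates 1 to 3, 63.5, 56.7 and 90.0 CPM in antigen p23, and 147, 126 and 81.1 CPM in metalloprotease. All 3 antigen p23 libraries lay below all 3 GFP control libraries, while the metalloprotease libraries overlapped both groups. The log2 fold change in antigen p23 against the control was -1.14 (SE 0.34), that is to 0.455 of the control level, with an unadjusted p of 0.00817 and an adjusted p of 0.964 in edgeR's quasi-likelihood test over 6381 genes. Over all alternatives of processing the value ran from -1.36 to -0.76 and the adjusted p from 0.298 to 1.00. Antigen p23 replicate 3, at 90.0 CPM, lay below the lowest control but above metalloprotease replicate 3, at 81.1 CPM.

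SF3A2 (HPB47_025224), a subunit of the SF3A complex that joins the U2 snRNP to the branch site, was the gene with a higher level. It had 61.2, 68.0 and 69.9 CPM in the GFP control, 176, 111 and 74.2 CPM in antigen p23, and 81.7, 68.8 and 105 CPM in metalloprotease. The groups did not overlap, but antigen p23 replicate 3 was close to the highest control. The log2 fold change was 0.86 (SE 0.38), with an unadjusted p of 0.0497 and an adjusted p of 0.964 in edgeR. Without antigen p23 replicates 1 and 2 it was 0.17.

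**Figure D2:**
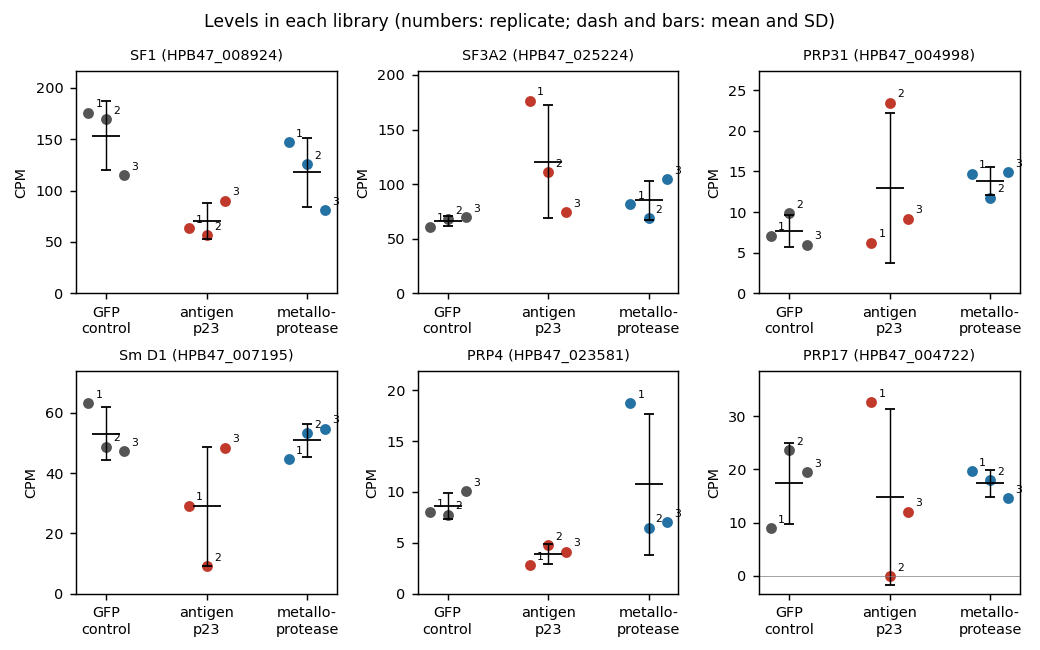
CPM of 6 splicing genes in each library, with points numbered by replicate and a dash with bars for the mean and SD of 3 libraries per group. SF1 and PRP4 were lower in every antigen p23 library than in every GFP control library, SF3A2 was higher, PRP31 was higher in every metalloprotease library, and Sm D1 and PRP17 had their lowest values in antigen p23 replicate 2.

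In all, 6 of 52 splicing genes were higher in every antigen p23 library than in every control library (11.5%, background 5.20%) and 2 were lower (3.85%, background 6.24%). The higher genes were SF3A2, the SR proteins SRSF2 (log2 fold change 0.51, SE 0.26) and SRSF4 (HPB47_004697, 0.55, SE 0.36), SPF30 (HPB47_003040, 0.29, SE 0.32), a Tudor domain protein of the U2 snRNP, PRP40B (0.94, SE 0.49), which bridges U1 and the branch site, and SYF1 (HPB47_024381, 0.99, SE 0.58) of the Prp19 complex. The lower genes were SF1 and PRP4 (-1.14, SE 0.78). None but SF1 and SF3A2 reached an unadjusted p of 0.05 in edgeR's test. When 1 library was left out, the number of splicing genes at that p was 3 without antigen p23 replicate 3 and 1 without any of the other 5.

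SRSF2 may serve for the size of these differences. It had 404, 311 and 371 CPM in the GFP control, 438, 533 and 581 CPM in antigen p23, and 346, 545 and 337 CPM in metalloprotease. The lowest antigen p23 library lay just above the highest control, and metalloprotease replicate 2 reached the antigen p23 range. PRP40B had 10.6, 13.5 and 12.9 CPM in the control, 31.6, 22.0 and 17.7 CPM in antigen p23, and 15.4, 11.8 and 14.2 CPM in metalloprotease, so that antigen p23 stood above both other groups. SYF1 had 8.5, 7.93 and 8.81 CPM in the control and 19.4, 21.7 and 9.19 CPM in antigen p23, where replicate 3 barely cleared the control, and 20.5, 4.41 and 10.6 CPM in metalloprotease.

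By role, 7 of 9 SR proteins were higher in antigen p23. Their log2 fold changes had a median of 0.42 and ran from -0.55 to 0.73. Beside SRSF2 and SRSF4, SRSF7 stood at 0.50 (SE 0.34), SRSF6 (HPB47_004694) at 0.42 (SE 0.34) and another SRSF4 model (HPB47_004693) at 0.73 (SE 0.41). SRSF1 (-0.43, SE 0.43) and SRSF12 (HPB47_001403, -0.55, SE 0.76) were on the other side. After scaling, the summed level of the SR class was 2138, 2173 and 2055 CPM in the control and 3157, 2410 and 2418 CPM in antigen p23, with no overlap. It was 2084, 2126 and 2163 CPM in metalloprotease. This separation depends on the TMM factors (0.794 in antigen p23 replicate 1, 1.26 in GFP control replicate 2). As shares of total counts, the SR sums overlapped, with GFP control replicate 2 above every antigen p23 library. The scaled sums of the midgut markers were also higher without overlap in antigen p23 (6642 to 8971 CPM, against 4293 to 6502 in the control). Of the 9 markers tested, 2 were higher at an unadjusted p of 0.05 in edgeR (1.55% of all genes were), with 0 after adjustment. The part of the midgut markers in the SR values was not tested. No SR protein reached an unadjusted p of 0.05. In the U2 class 10 of 13 were higher (median 0.25), in the Prp19 class 6 of 8 (median 0.11), in the Sm core 2 of 4 (median -0.13) and among the U4/U6 and U5 proteins 4 of 9 (median -0.47).

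**Figure D3:**
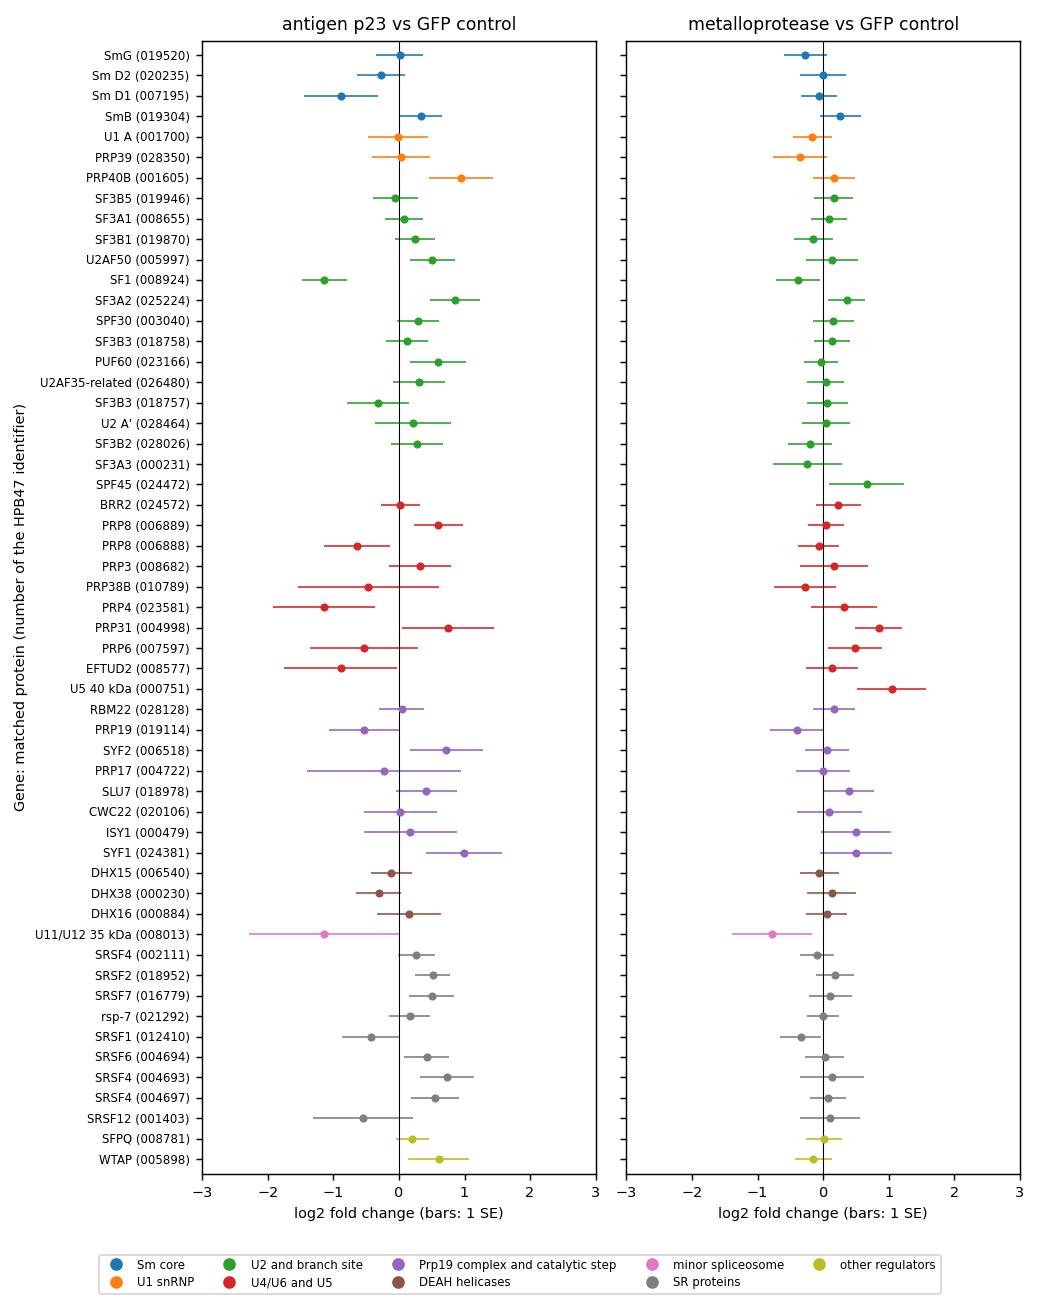
Log2 fold change of each tested splicing gene in antigen p23 and in metalloprotease against the GFP control, with bars of 1 SE and genes grouped and coloured by role. Most values lie between -1 and 1 in antigen p23 and between -0.5 and 0.5 in metalloprotease, and none passed the test after adjustment.

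Antigen p23 replicate 1 had a large part in these values. It was the highest of the 9 libraries for 23 of the 52 genes (44.2%), where 18.9% of all genes tested were highest there, and antigen p23 replicate 2 was the lowest for 12 of them (23.1%, against 24.7% of all genes). PUF60 (HPB47_023166), a U2AF-related factor, had 84.6, 102 and 90.0 CPM in the control and 235, 83.5 and 98.9 CPM in antigen p23, so that its log2 fold change of 0.59 (SE 0.43) came from replicate 1 alone. WTAP likewise had 47.9, 55.5 and 36.2 CPM in the control and 117, 58.5 and 37.4 CPM in antigen p23. Leaving out 1 library at a time moved the median of the splicing genes between 0.03 and 0.25, and without both antigen p23 replicates 1 and 2 it was 0.00.

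Single libraries of this group also lacked genes that every other library held. PRP17 (HPB47_004722), a WD-repeat protein of the catalytic steps, had 0 counts in antigen p23 replicate 2 and 38 to 137 counts in the other 8 libraries. U11/U12 35 kDa had 0 counts there and 17 to 146 elsewhere, SF3A3 0 and 5 to 26, and SPF45 (HPB47_024472), an alternative splicing factor of the U2 group, 0 and 4 to 41. PRP6 (HPB47_007597), the scaffold that links U5 to U4/U6, had 4 counts in that library and 33 to 93 in the other 8. In antigen p23 replicate 1 the low genes were different ones: EFTUD2 had 3 counts against 20 to 149, and PRP38B (HPB47_010789), matched to a factor of spliceosome activation, 1 count against 17 to 53. CWC25 (HPB47_024919), needed for the first catalytic step in yeast, had 0 counts in antigen p23 replicate 3 and 2 to 27 in the other 8 libraries. The median of those 8 was 3.5 counts, so its 0 cannot be told from most of them.

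Counted over the 52 tested genes, 2 had a CPM in antigen p23 replicate 1 under 0.333 times the lowest of the other 8 libraries (3.85%, against 5.88% of all genes with a median of at least 20 counts), 4 did in antigen p23 replicate 2 (7.69%, against 8.41%), and 0 did in any other library (0.0541% to 0.343% of all genes). The shares of splicing genes with such a drop were close to those of genes in general. Sm D1, of the Sm ring, is 1 of the 4: it had 63.3, 48.8 and 47.2 CPM in the control and 29.2, 9.21 and 48.5 CPM in antigen p23. Replicate 3 was level with the control, and the log2 fold change of -0.88 (SE 0.56) came from replicates 1 and 2.

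A pair of neighbouring models was matched to PRP8, and another to SF3B3. Whether each pair is 1 gene in parts or neighbouring copies was not tested. The PRP8 models are HPB47_006888 (4653 coding bases) and, 6191 bases downstream on the same strand, HPB47_006889 (2703 coding bases). The upstream model held 42.8%, 37.5% and 43.1% of the counts of the pair in GFP control replicates 1 to 3 and 36.5%, 48.2% and 33.6% in metalloprotease. In antigen p23 it held 6.49% in replicate 1 (95% exact Clopper-Pearson interval 5.05 to 8.20%), 28.9% in replicate 2 (25.7 to 32.3%) and 41.7% in replicate 3 (38.2 to 45.3%). Antigen p23 replicate 1 stood far below the other 8 libraries and replicate 2 next to it. The pair's fitted changes in antigen p23 ran in opposite directions, -0.64 (SE 0.50) upstream and 0.60 (SE 0.37) downstream.

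SF3B3, a large WD-repeat subunit of SF3B, was matched to HPB47_018757 (1551 coding bases) and HPB47_018758 (948 coding bases), 6580 bases apart. The upstream model held 15.8% of the pair's counts in antigen p23 replicate 1 (11.7 to 20.7%) and 28.2 to 40.8% in the other 8 libraries, with 40.7% in antigen p23 replicate 2. Both pairs thus had their lowest upstream share in antigen p23 replicate 1. The cause of the low share was not tested.

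**Figure D4:**
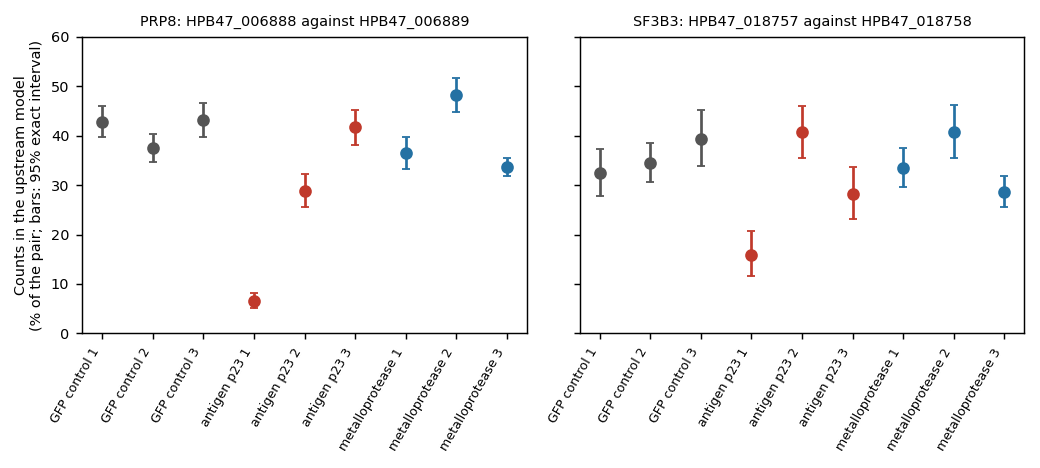
Share of counts in the upstream model of the PRP8 and SF3B3 pairs, in percent of the pair, for each of the 9 libraries with 95% exact intervals. Antigen p23 replicate 1 is lowest in both panels, at 6.49% for PRP8 and 15.8% for SF3B3.

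The comparison of metalloprotease with the GFP control asks the same of dsRNA against the other target. The study calls its midgut silencing partial and also not effective. No splicing gene passed the threshold after adjustment. The filter left 55 splicing genes, 36 above the control and 19 below it (65.5% higher, against 49.4% of all 6786 genes tested), with a median log2 fold change of 0.06 against -0.00 for all genes. The quasi-likelihood test of edgeR called 0 of 6786 genes after adjustment (0% called), and DESeq2 called 0. Before adjustment, 1 splicing gene reached a p of 0.05 as higher in edgeR (0.737% of all genes) and 0 as lower (0.693% of all genes), and in DESeq2 0 did in either direction (0.813% of all genes as higher and 0.610% as lower). Only 1 of the 55 differed by more than 1 on the log2 scale, against 4.95% of all genes. The SE of the log2 fold changes had a median of 0.33 and ran from 0.25 to 0.61. Here too, a missed threshold does not show that levels were equal.

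The gene at the unadjusted threshold was PRP31, which binds U4 and helps join the tri-snRNP. It had 7.09, 9.83 and 5.98 CPM in the GFP control, 14.7, 11.8 and 14.9 CPM in metalloprotease, and 6.25, 23.5 and 9.19 CPM in antigen p23. All 3 metalloprotease libraries were above the control, and the antigen p23 libraries spread over both. The log2 fold change was 0.85 (SE 0.36), with an unadjusted p of 0.0490 and an adjusted p of 1.00 in edgeR, and 0.72 to 1.08 over the alternatives. The p rose above 0.05 when any 1 of the 6 libraries other than GFP control replicate 2 was left out, so that 0 splicing genes remained at that p.

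U5 40 kDa was the other splicing gene without overlap between these groups (2 of 55 higher, 3.64%, background 2.67%). None was lower in every library (0 of 55, background 2.95%). It had few reads, with 9, 10 and 3 counts in the control and 14, 12 and 32 in metalloprotease, and a log2 fold change of 1.04 (SE 0.53). Of the 10 U4/U6 and U5 genes, 8 were higher in metalloprotease, with a median of 0.20 and values from -0.27 to 1.04. BRR2, the best covered of them, had 1314, 807 and 1330 CPM in the control and 891, 1405 and 1759 CPM in metalloprotease, with a log2 fold change of 0.23 (SE 0.35), so that the groups overlapped. The SR proteins had a median of 0.08 and a range of -0.34 to 0.18. Without metalloprotease replicate 1, 25 of 55 splicing genes were higher and the median was -0.03.

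Antigen p23 and metalloprotease were also compared directly. In the 53 splicing genes with a test, antigen p23 was higher for 30 and lower for 23 (56.6% higher, against 44.8% of all 6383 genes), with a median log2 difference of 0.08 against -0.07. None passed after adjustment in edgeR (0% of all genes called) and none reached an unadjusted p of 0.05 (1.05% of all genes did as higher and 1.52% as lower). DESeq2 called 21 genes after adjustment (0.275%), none of them a splicing gene, and 0 splicing genes reached a p of 0.05 in it before adjustment (0.933% of all genes as higher and 2.50% as lower). On the log2 scale, 3 of the 53 differed by more than 1, against 15.1% of all genes. SF1 again had the smallest p, with a difference of -0.74 (SE 0.36, unadjusted p 0.0696 in edgeR).

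Groups did not overlap for 4 genes higher in antigen p23 (7.55%, background 3.59%) and 1 lower (1.89%, background 5.11%). The higher genes were SRSF4 (HPB47_002111, 0.37, SE 0.26), SRSF4 (HPB47_004697, 0.48, SE 0.37), SF3B2 (0.48, SE 0.40) and PRP40B (0.80, SE 0.49), and the lower one was PRP4 (-1.45, SE 0.81). PRP4, a WD-repeat protein of the U4/U6 snRNP, had 8.03, 7.76 and 10.1 CPM in the GFP control, 2.78, 4.75 and 4.12 CPM in antigen p23, and 18.7, 6.47 and 7.03 CPM in metalloprotease. Every antigen p23 library was below every other library, on 8 to 16 counts per library. Because both knockdowns share the same control libraries, their values against the control are not independent. SF1 stood at -1.14 and -0.38, SF3A2 at 0.86 and 0.36, PRP40B at 0.94 and 0.16 and PRP31 at 0.75 and 0.85 in antigen p23 and metalloprotease against the control.

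GFP control replicate 2 and metalloprotease replicate 1 resembled each other across groups. They were the highest 2 of the 6 libraries of both groups for 13 of 55 splicing genes (23.6%, against 20.8% of all genes tested) and the lowest 2 for another 13 (23.6%, against 18.9%). BRR2, at 807 and 891 CPM against 1314 to 1759 CPM in the other 4 libraries, was lowest in both. So was SF3B1, at 388 and 396 CPM against 515 to 667 CPM, and SRSF7, at 153 and 225 CPM against 228 to 325 CPM. DHX38 showed the opposite, at 410 and 394 CPM against 199 to 279 CPM.

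Which genes were high in that pair went in part with the structure of the gene model. Of the 64 splicing genes, 7 have a model of 1 uninterrupted block, in which the span on the scaffold equals the coding length (10.9%, against 21.7% of all genes and 12.8% of those tested). They are SRSF4 (HPB47_002111), SFPQ, SF3A1, rsp-7, SF3B5, DHX38 and RBM22, and they are 7 of the 11 splicing genes with the most counts. GFP control replicate 2 and metalloprotease replicate 1 were the highest 2 libraries for 4 of these 7 and for 9 of the 48 with several blocks, and the lowest 2 for 0 of 7 and 13 of 48. Over all genes tested, the pair was highest for 36.9% of models of 1 block and 18.5% of the others, and lowest for 14.5% and 19.6%. The median log2 ratio of that pair over the other 4 libraries was 0.31 for the 7 genes and 0.09 for the 48, and 0.26 and -0.11 over all genes. The ratio was above 0 for 7 of the 7 and 26 of the 48. Over all genes tested it was above 0 for 526 of 856 models of 1 block and 2625 of 5930 with several blocks. The cause of this split was not tested.

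**Figure D5:**
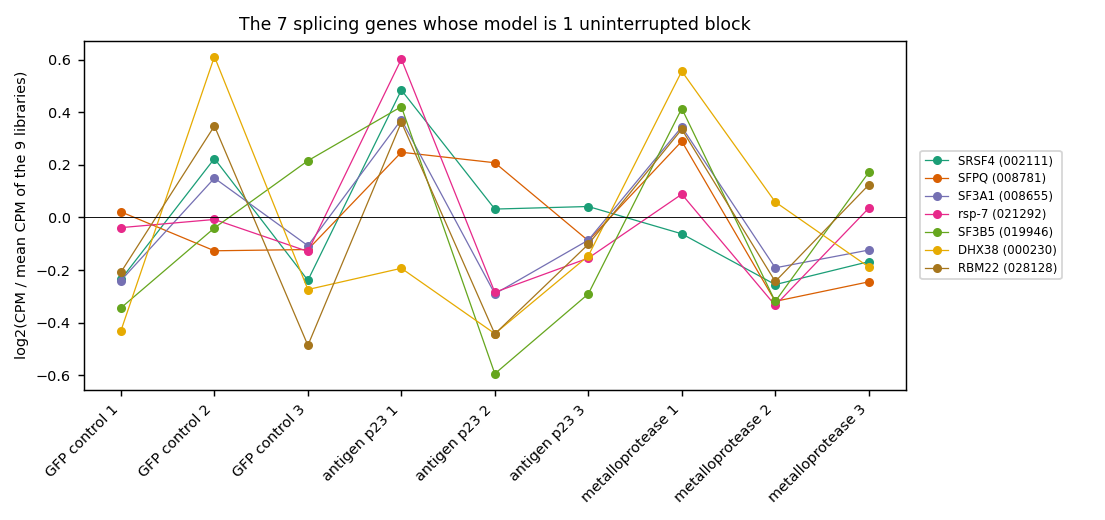
Log2 of the CPM in each library over the mean of the 9 libraries, for the 7 splicing genes whose model is 1 block, with 1 line per gene. DHX38 is highest in GFP control replicate 2 and metalloprotease replicate 1, and 6 of the 7 genes are above 0 in antigen p23 replicate 1.

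Other members of the family lie together on 1 scaffold. SRSF4 (HPB47_004693), SRSF6 and SRSF4 (HPB47_004697) follow one another on the same strand, and their counts may share reads because they encode related proteins and because it is not stated how reads that fit more than 1 gene were handled. Their values in antigen p23 against the control (0.73, 0.42 and 0.55) and in metalloprotease (0.13, 0.02 and 0.08) may therefore not be independent, nor may their places in the counts of SR proteins above. SF3A3 and DHX38 lie head to head, 445 bases apart on opposite strands, and SF3A3 held 0 to 2.55% of the counts of the pair.

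Genes of neighbouring steps of mRNA maturation were taken by name in 7 lists, without the 64 genes. After adjustment 0 of them passed in any comparison. Of the genes with LSm names, which include subunits of the ring on U6 (LSm4 and LSm7) and proteins outside it (LSM12 and LSM14A), 3 of 5 tested were higher in antigen p23 (median 0.19) and 4 of 5 in metalloprotease (median 0.27). Of the hnRNP proteins, which coat pre-mRNA, 3 of 4 (median 0.38) and 3 of 5 (median 0.13) were higher. For the exon junction and mRNA export list these counts were 6 of 8 (median 0.13) and 5 of 8 (median 0.06), and for 3-prime end processing 5 of 12 (median -0.03) and 10 of 13 (median 0.06). For snRNP assembly they were 1 of 4 (median -0.18) and 4 of 4 (median 0.27), and for the remaining spliceosome proteins 9 of 13 (median 0.27) and 11 of 12 (median 0.16). The single splicing kinase, a PRP4 kinase (HPB47_008388), stood at -0.59 (SE 0.35) in antigen p23 and at -0.41 in metalloprotease.

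Luc7-like protein 3 (HPB47_003397), a relative of a yeast U1 snRNP protein, was the only gene of these lists at an unadjusted p of 0.05 or less. For antigen p23 against the control, its list of remaining spliceosome proteins had 1 such gene of 13 tested. The other lists, with 1 to 12 genes tested each, had 0. Of all genes tested, 1.55% were higher at that cutoff against the control and 1.05% against metalloprotease. With 7 lists searched, 1 such gene cannot be told from this background. Luc7-like protein 3 had 57.4, 63.5 and 64.2 CPM in the GFP control, 168, 122 and 85.6 CPM in antigen p23, and 81.7, 67.4 and 61.9 CPM in metalloprotease. Every antigen p23 library lay above every other library. The log2 fold change against the control was 1.02 (SE 0.35, unadjusted p 0.0166, adjusted p 0.964 in edgeR) and against metalloprotease 0.85 (SE 0.36, unadjusted p 0.0431, adjusted p 0.998 in edgeR). As for SF3A2, antigen p23 replicate 1 was highest and replicate 3 lowest of its group.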

How the data were processed

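Midgut RNA of 9 pools was sequenced by the authors as paired-end reads. Per the paper's methods and the labels, the authors used Bowtie2 2.5.3 for alignment to the I. persulcatus genome (assembly BIME_Iper_1.3) and featureCounts for counting. They deposited unnormalized read counts for 28510 genes and 9 libraries. Strand and multiple-mapping settings of the counting were not given in the sources used here. The authors' annotation gave 10802 of these genes a Swiss-Prot match, and the naming rule could reach only those. Library totals were 3303358 to 9430607 counts.

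Each pair of groups was fitted on its own 6 libraries with edgeR 4.0.16 in R 4.3.3 (filterByExpr, TMM, quasi-likelihood F test with robust dispersions, group as the only term), with Benjamini-Hochberg adjustment across the tested genes and a threshold of 0.05. The SE comes from the F statistic. The script was tested on simulated data. P values measure the spread between pools. CPM were scaled with TMM over 9 libraries. DESeq2 1.42.0, other normalization and filters, a replicate block, all 9 libraries in 1 fit and leaving out libraries were alternatives.

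The members, classes and lists were chosen with earlier results of these data known. Genes were named if they were among the 8 smallest p of a comparison, the 3 highest levels of a class, adjacent or same-match models, or part of a count of 5 or fewer. Low counts in single libraries, genes without overlap, and the genes of 1 block were chosen after their values were seen. No sequence was printed.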

Additional observations from a re-analysis of the deposited data

How the results depend on the processing

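No splicing gene passed after adjustment under any alternative run. Of the log2 fold changes of named genes under the alternatives, 329 kept their direction and side of the threshold and 2 reversed, both in antigen p23 against metalloprotease without both antigen p23 replicates 1 and 2: WTAP at -0.17 and PRP8 (HPB47_006889) at -0.021. The medians were 0.00 for antigen p23 against the control and -0.10 against metalloprotease in that fit, and leaving out 1 library gave 0.03 to 0.25 for antigen p23 and -0.026 to 0.11 for metalloprotease. Over the whole table, antigen p23 against the control had 5 calls without a filter and 6 with DESeq2, and antigen p23 against metalloprotease had 16 without a filter, 1 with at least 10 counts in every library, 1 with the replicate block and 21 with DESeq2. Splicing genes with a p of up to 0.05 before adjustment in antigen p23 against the control numbered 2 in the fit as reported, 1 with at least 10 counts, without robust dispersions, with the replicate block or with DESeq2, 0 without both antigen p23 replicates 1 and 2, and 1 to 3 when 1 library was left out. In metalloprotease they numbered 1, and 0 without a filter, with all 9 libraries, with the replicate block, with DESeq2 or without both GFP control replicate 2 and metalloprotease replicate 1 (chosen after seeing the data), and 0 to 1 when 1 library was left out. In antigen p23 against metalloprotease they numbered 0, 1 without a filter and 2 with all 9 libraries, and 0 to 2 when 1 library was left out. The sources do not state that replicate numbers pair the pools. For same-numbered libraries, the deviations of each gene from its group mean were correlated. The values were -0.16 to -0.05 (antigen p23 and control), -0.47 to 0.10 (metalloprotease and control) and -0.11 to 0.07 (the knockdowns). With 3 libraries per group, deviations from a group mean are tied to each other, so these values cannot exclude pairing. Values of the 18 splicing genes with fewer than 10 counts in some library rest on few reads there.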
